A study of Mus musculus with 8 samples.

Results

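Splicing regulators were followed as 39 listed genes: 10 SR proteins, 2 Tra2 proteins, 15 hnRNP proteins, 2 PTB proteins, 8 factors known for tissue-specific splicing and 2 CLK kinases. Of these, 37 had a value in the files, among 14002 genes with one. For 36 of them the entries named the gene itself, and Hnrnpm was recovered by its exon boundaries, since its entries carried the name of its neighbour March2. Hnrnpa0 and Qk had no entry and are not analysed here. The samples were intestinal organoids grown from isolated crypts in Matrigel, 4 from wild type littermates (WT) and 4 from MG53-TG mice, a line described as overexpressing MG53 (Trim72, a TRIM-family E3 ligase known for membrane repair) throughout the body. No further allele or agent, and no age of the donor mice, was given in the labels for either group. The study's text also speaks of crypt organoids from Lgr5-EGFP-IRES-CreERT2 knock-in mice with and without the MG53 transgene, so both groups may carry that allele, which the labels do not settle. The labels number the samples 1 to 4 in each group without saying whether they came from separate mice or cultures, so p-values measure the spread between these samples only, which may be technical.

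Pre-mRNA splicing removes introns, and regulators bound near an exon decide how often that exon is kept. SR proteins bind exons through RNA recognition motifs and recruit the spliceosome through arginine and serine rich domains, hnRNP and PTB proteins often repress nearby splice sites, and CLK kinases phosphorylate SR proteins and release them from nuclear speckles. ESRP proteins set the epithelial pattern of exons, whereas MBNL, CELF and RBFOX proteins are known for exon switches during differentiation. Several of these genes also control their own transcripts by keeping an exon that carries an early stop codon.

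Each sample was described by FPKM, a read density corrected for transcript length and library size, of transcript start, transcript end and splicing events. A gene's level was the sum of FPKM over its start events, or over its end events where that mean was higher. Trim72 was listed at 0 in all 4 WT samples and reached 16.4, 27.4, 31.9 and 36.5 FPKM in MG53-TG. Epithelial markers were high throughout, with summed levels between 2125 and 2451 FPKM in WT and between 1791 and 2267 in MG53-TG, although 4 of 7 passed as lower and 1, Vil1, as higher. Of 10 immune markers, 6 had no value above 0, and the summed level of the list was at most 9.24 FPKM in any sample; the 1 that could be tested, Cd68, was lower in MG53-TG, from 3.75 to 9.08 FPKM in WT to between 0.469 and 1.28. The MG53-TG samples did not form one even group: the summed level of 16 proliferation genes was 777 to 834 FPKM in WT, 535 and 562 in MG53-TG samples 1 and 2, and 245 and 167 in samples 3 and 4. Stem cell markers divided the samples in the same way, at 520 to 694 FPKM in WT, 296 and 310 in MG53-TG samples 1 and 2, and 105 and 67.1 in samples 3 and 4, with 5 of 8 genes lower. All 5 Paneth cell markers tested and 6 of 8 goblet cell markers were lower; the summed goblet level was 214 and 292 FPKM in samples 1 and 2 and 472 and 559 in samples 3 and 4, against 781 to 893 in WT. Enteroendocrine markers went the other way, with 3 of 5 tested higher and summed levels of 220 to 280 FPKM in WT and 323 to 467 in MG53-TG. Of 3 mesenchyme markers tested 2 were higher, and that list summed to at most 5.65 FPKM in any sample. The summed level of 15 enterocyte genes was 1001 to 1187 FPKM in WT and 12099 to 13724 in MG53-TG, with all 15 genes past the threshold. In bulk organoids, fewer cells of a type and less RNA per cell cannot be told apart.

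Of 37 splicing regulators tested, 17 were lower in MG53-TG organoids, the 2 CLK kinases were higher, and 18 did not pass an adjusted p of 0.05 in limma. Changes of this kind were common in these samples, where 44.4% of 10864 genes passed, 28.9% lower and 15.5% higher, against 51.4%, 45.9% and 5.41% of the members. The median log2 fold change of the members was -0.51, and that of all genes tested was -0.17. When samples were rescaled by the median of ratios, which moved the median of all genes by 0.16, the members' median was -0.32 and 15 passed, 12 lower and 3 higher. On that scale 40.5% of all genes passed, 20.3% lower and 20.3% higher. The groups did not overlap for 18 members (48.6%), 16 lower and 2 higher, compared with 44.7% of all genes.

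**Figure D1:**
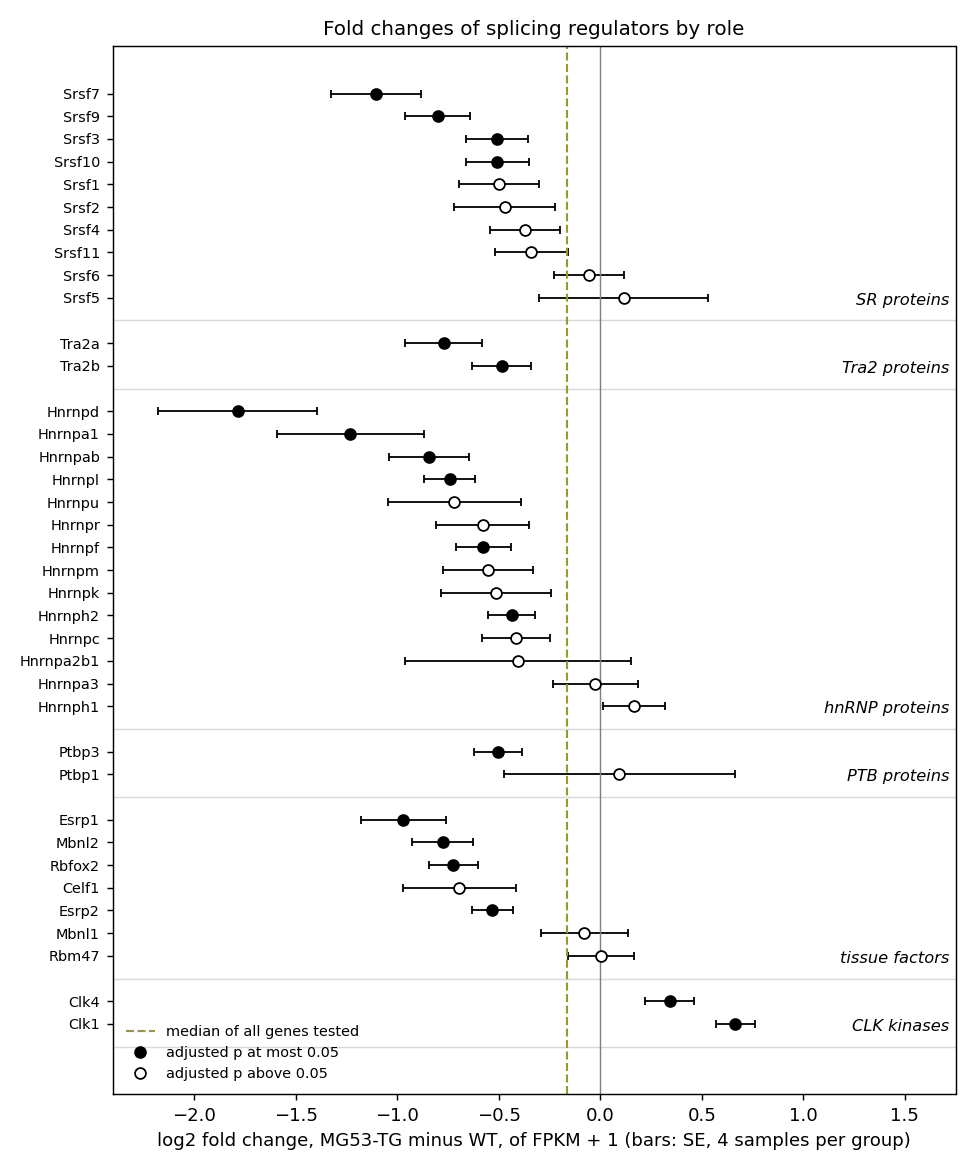
Log2 fold change (MG53-TG minus WT, on FPKM + 1) of the 37 splicing regulators by role, with SE bars and 4 samples per group; filled points passed an adjusted p of 0.05, and the dashed line is the median of all genes tested. The 2 CLK kinases are the filled points to the right of 0, and Hnrnpd lies farthest to the left at -1.79.

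Within the MG53-TG group, the summed levels of proliferation and stem cell markers were lower in samples 3 and 4 than in samples 1 and 2. For 24 of the 37 members (64.9%), samples 3 and 4 were both below samples 1 and 2, which held for 42.2% of 10568 genes with a value in every MG53-TG sample. With samples 3 and 4 left out, 15 members passed, 11 lower and 4 higher; 35.4% of 10707 genes passed in that fit, 22.1% lower and 13.3% higher. The part of cell composition in these levels was not tested. WT sample 2 was the lowest of all 8 samples for Srsf5 at 57.4 FPKM, for Hnrnpa2b1 at 84.0 and for Ptbp1 at 15.1. Without it, 15 members passed, 14 lower and 1 higher, when 36.3% of 10846 genes passed, 22.8% lower and 13.4% higher.

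**Figure D2:**
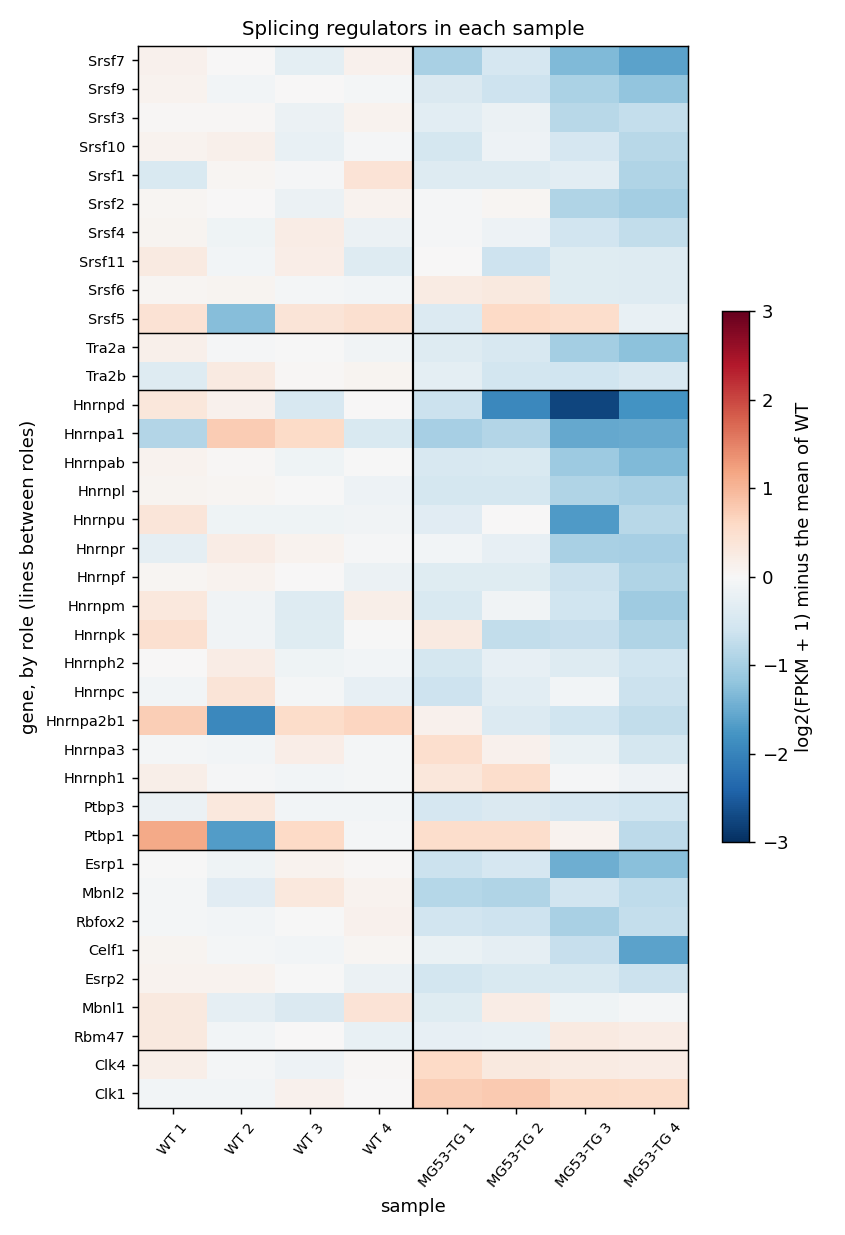
Each row is a splicing regulator and each column a sample; colour gives log2(FPKM + 1) minus the mean of the WT samples, and horizontal lines separate roles. Most rows are blue in the MG53-TG columns, deepest in samples 3 and 4, the Clk1 and Clk4 rows are red, and WT sample 2 is dark blue for Srsf5, Hnrnpa2b1 and Ptbp1.

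Of 10 SR proteins, 4 (40.0%) were lower in MG53-TG and 6 did not pass. Among all genes tested, 28.9% were lower and 44.4% passed in either direction. The largest change was in Srsf7, a zinc knuckle SR protein also linked to mRNA export. Srsf7 was at 99.3, 91.9, 74.1 and 98.9 FPKM in WT samples 1 to 4 and at 45.8, 63.1, 35.5 and 28.8 in MG53-TG samples 1 to 4. Every MG53-TG sample lay below every WT sample, and the log2 fold change was -1.10 ± 0.22 (SE, adjusted p = 0.00439). Srsf9, a short SR protein, was at 44.3, 38.8, 41.7 and 39.7 FPKM in WT and at 30.0, 26.5, 20.7 and 17.4 in MG53-TG. Its groups did not overlap either, with a log2 fold change of -0.80 ± 0.16 (adjusted p = 0.00434).

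Srsf3, the smallest of the classical SR proteins and an adaptor for mRNA export, was at 101, 101, 87.9 and 107 FPKM in WT and at 80.0, 87.4, 55.5 and 60.0 in MG53-TG. The groups were separated only by the gap between 87.4 and 87.9 FPKM, and the log2 fold change was -0.51 ± 0.15 (adjusted p = 0.0259). Srsf10, an SR protein that turns into a repressor when dephosphorylated, was at 34.9, 35.9, 27.7 and 31.5 FPKM in WT and at 22.1, 29.1, 22.6 and 17.6 in MG53-TG, with a log2 fold change of -0.51 ± 0.15 (adjusted p = 0.0269). Here MG53-TG sample 2 reached into the WT range. Neither call was firm: when single samples were left out in turn, Srsf3 passed in 3 of 8 fits (adjusted p up to 0.0673) and Srsf10 in 2 of 8 (up to 0.0712), and both missed the threshold after median-of-ratios scaling. End events of Srsf10, which summed to at most 2.65 FPKM in any sample, gave the opposite direction on their own (0.22, adjusted p = 0.408).

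The remaining SR proteins did not pass. Srsf1, the founding member of the family, had a log2 fold change of -0.50 ± 0.20 (adjusted p = 0.0673), and passed without WT sample 1 (-0.65, adjusted p = 0.0251). Srsf2, which marks nuclear speckles, split the MG53-TG group: samples 1 and 2 had 122 and 130 FPKM, inside the range around the WT mean of 124 ± 10.3 (SD, n = 4), and samples 3 and 4 had 66.0 and 60.5. Its log2 fold change was -0.47 with all samples and 0.02 without samples 3 and 4, and it passed without sample 2 (-0.65, adjusted p = 0.0480). Srsf6 showed the same division, at 69.5 and 71.4 FPKM against 44.8 and 44.2, around a WT mean of 58.3 ± 3.42 (SD, n = 4). Without samples 3 and 4 it was higher than WT, by 0.27 on the log2 scale (adjusted p = 0.0393). Srsf4 and Srsf11 had log2 fold changes of -0.37 and -0.34, and Srsf4 passed without MG53-TG sample 1 (-0.48, adjusted p = 0.0491). Srsf5, with WT sample 2 far below the others, had 0.12 with that sample and -0.31 without it.

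The Tra2 proteins are SR-like activators that bind purine-rich exonic enhancers, and both were lower. Tra2a was at 53.1, 46.4, 46.7 and 44.0 FPKM in WT and at 36.3, 34.0, 23.0 and 19.8 in MG53-TG. No sample overlapped, and the log2 fold change was -0.77 ± 0.19 (adjusted p = 0.0111). Tra2b had a log2 fold change of -0.48 ± 0.15 (adjusted p = 0.0263), with WT sample 1 at 26.2 FPKM inside the MG53-TG range of 22.7 to 27.9. It passed in 2 of the 8 fits that left out a single sample (adjusted p up to 0.0691), and its call was lost after median-of-ratios scaling (0.142), after quantile normalization (0.0641) and with the replicate number as a block (0.0636).

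Of 14 hnRNP proteins measured, 6 (42.9%) were lower and 8 did not pass, where 28.9% of all genes were lower and 44.4% passed in either direction. Hnrnpd (AUF1, which binds AU-rich elements and marks mRNAs for decay) had the largest change of all 37 members. It was at 84.7, 73.2, 47.1 and 66.6 FPKM in WT and at 41.9, 16.7, 9.01 and 18.3 in MG53-TG. The groups did not overlap, MG53-TG sample 1 came closest to WT, and the log2 fold change was -1.79 ± 0.39 (adjusted p = 0.00643). Its paralog Hnrnpab, the second most abundant member in WT, was at 405, 386, 342 and 369 FPKM in WT and at 270, 271, 174 and 148 in MG53-TG. The log2 fold change was -0.84 ± 0.20 (adjusted p = 0.00853).

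Hnrnpa1, a repressor that binds exonic and intronic silencers, was at 84.1, 267, 232 and 114 FPKM in WT and at 78.4, 83.9, 53.5 and 53.9 in MG53-TG. The groups were barely separated, by the gap between MG53-TG sample 2 at 83.9 FPKM and WT sample 1 at 84.1. Its log2 fold change was -1.23 ± 0.36 (adjusted p = 0.0236), and the call held in 4 of the 8 fits that left out a single sample (adjusted p up to 0.0623). Hnrnpa1 has processed copies elsewhere in the genome, so its level is uncertain where reads could be shared. Hnrnpl, which binds CA repeats, was at 107, 107, 102 and 92.2 FPKM in WT and at 69.8, 70.1, 53.6 and 51.1 in MG53-TG. It combined a clear gap with a small spread, and its log2 fold change was -0.74 ± 0.13 (adjusted p = 0.00190).

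Hnrnpf, which binds runs of guanine, was at 335, 347, 321 and 281 FPKM in WT and at 248, 248, 203 and 170 in MG53-TG, with a log2 fold change of -0.58 ± 0.14 (adjusted p = 0.00879). Of its relatives in the H/F group, Hnrnph2 was lower by a log2 fold change of -0.44 ± 0.12 (adjusted p = 0.0158, and 0.0932 after median-of-ratios scaling), and Hnrnph1 had 0.17 ± 0.15 (adjusted p = 0.407). For Hnrnph1, MG53-TG samples 1 and 2 had 83.4 and 94.3 FPKM and samples 3 and 4 had 63.7 and 58.9, around a WT mean of 65.7 ± 5.74 (SD, n = 4). It passed as higher without samples 3 and 4 (0.43, adjusted p = 0.0190) and after median-of-ratios scaling (0.36, adjusted p = 0.0381).

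Hnrnpa2b1, a reader of sequence motifs in RNA transport and splicing, was the most abundant member in WT. It was at 538, 84.0, 473 and 510 FPKM in WT and at 356, 242, 214 and 194 in MG53-TG. By these sums of end events WT sample 2 fell below the MG53-TG samples, and its start events summed to 83.7 FPKM. The forms with and without the 120-base exon of the same gene, however, summed to 312 FPKM in WT sample 2, against 356, 241, 233 and 212 in MG53-TG, so the low value belongs to the start and end events and the level of this sample is uncertain. Pairs of a tested exon and a sample were counted once for each pair of flanking exons. Among these 232 pairs, this was the 1 case in which the forms summed to over 1.5 times the gene level. In 37 pairs, from 7 exons of Hnrnpf, Mbnl2, Esrp1, Clk4, Hnrnpk and Celf1, the forms summed to under 0.5 times the level, so those shares describe the minor part of the gene's transcripts there. With all samples the log2 fold change was -0.40 ± 0.56 (adjusted p = 0.583), and without WT sample 2 it was -1.05 (adjusted p = 0.00582). The others that did not pass were Hnrnpc, Hnrnpk, Hnrnpm, Hnrnpr and Hnrnpu, with log2 fold changes from -0.41 to -0.72, and Hnrnpa3, with -0.02. These values leaned on single samples: Hnrnpk passed as lower without MG53-TG sample 1 (-0.77, adjusted p = 0.0125), Hnrnpu without sample 2 (-0.96, 0.0318) and Hnrnpc without sample 3 (-0.52, 0.0379), while Hnrnpm and Hnrnpr each passed in 2 of the 8 fits that left out a sample.

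The PTB proteins repress exons flanked by pyrimidine-rich tracts. Ptbp3 was at 56.4, 80.0, 60.0 and 60.2 FPKM in WT and at 44.8, 47.1, 44.7 and 41.8 in MG53-TG. The 4 MG53-TG samples lay close together and below every WT sample, with a log2 fold change of -0.50 ± 0.12 (adjusted p = 0.00895). After median-of-ratios scaling the adjusted p was 0.0626. Ptbp1 was at 113, 15.1, 77.8 and 48.4 FPKM in WT and at 74.1, 72.9, 54.8 and 29.0 in MG53-TG. Its samples spread so widely that the log2 fold change of 0.10 ± 0.57 carried no direction, and without WT sample 2 it was -0.47 (adjusted p = 0.365).

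Of 7 tissue factors measured, 4 (57.1%) were lower and 3 did not pass, where 28.9% of all genes were lower and 44.4% passed in either direction. Esrp1, the main epithelial splicing regulator, was at 40.6, 37.7, 43.9 and 42.2 FPKM in WT and at 25.9, 28.6, 14.2 and 16.6 in MG53-TG. The log2 fold change was -0.97 ± 0.21 (adjusted p = 0.00603), and by these end events samples 3 and 4 were the lowest. By start events Esrp1 was at 26.6 to 36.0 FPKM in WT and at 9.74, 11.4, 11.7 and 15.2 in MG53-TG. Samples 3 and 4 were then the highest of that group, so the order of the MG53-TG samples is uncertain for Esrp1. Its paralog Esrp2 was at 19.7, 19.7, 18.0 and 16.2 FPKM in WT and at 12.1, 13.0, 13.1 and 11.4 in MG53-TG, with a log2 fold change of -0.53 ± 0.10 (adjusted p = 0.00351). Esrp2 was at a like level in all 4 MG53-TG samples, also by start events (11.8 to 12.8 FPKM).

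Rbfox2, which binds UGCAUG next to regulated exons, was at 9.82, 9.67, 10.2 and 11.4 FPKM in WT and at 6.59, 6.27, 4.71 and 5.83 in MG53-TG. The spread within each group was small, and the log2 fold change was -0.72 ± 0.12 (adjusted p = 0.00174). Mbnl2 was at 26.6, 21.6, 34.8 and 29.9 FPKM in WT and at 14.9, 14.4, 18.4 and 15.9 in MG53-TG, a log2 fold change of -0.78 ± 0.15 (adjusted p = 0.00366) that missed the threshold when only start events were summed (adjusted p = 0.0567). Its paralog Mbnl1 had -0.08 ± 0.21 (adjusted p = 0.791). Rbm47, which also serves as a cofactor of apolipoprotein B mRNA editing, was at 37.9 ± 6.12 FPKM in WT and at 38.2 ± 7.59 in MG53-TG (SD, n = 4). Celf1 did not overlap between groups but did not pass (-0.69 ± 0.28, adjusted p = 0.0711), with MG53-TG sample 4 at 11.8 FPKM. When single samples were left out it ran from -0.86 to -0.39 and passed in 2 of 8 fits, without MG53-TG sample 1 (adjusted p = 0.0384) and without sample 2 (0.0455).

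Both CLK kinases were higher in MG53-TG. Clk1 was at 17.2, 17.4, 20.2 and 18.6 FPKM in WT and at 31.3, 32.2, 27.8 and 27.5 in MG53-TG. Clk1 had the smallest p of the 37 members, a log2 fold change of 0.67 ± 0.10 (adjusted p = 0.000890), and passed in each of the alternatives tried. Clk4 was at 14.6, 12.3, 11.5 and 13.2 FPKM in WT and at 19.9, 16.0, 15.5 and 15.2 in MG53-TG. Its groups did not overlap, but the change was smaller, at 0.34 ± 0.12 (adjusted p = 0.0453), and the call was lost when any single sample other than WT sample 1 was left out (adjusted p up to 0.110). Median-of-ratios scaling gave larger values for both, 0.85 for Clk1 and 0.52 for Clk4.

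**Figure D3:**
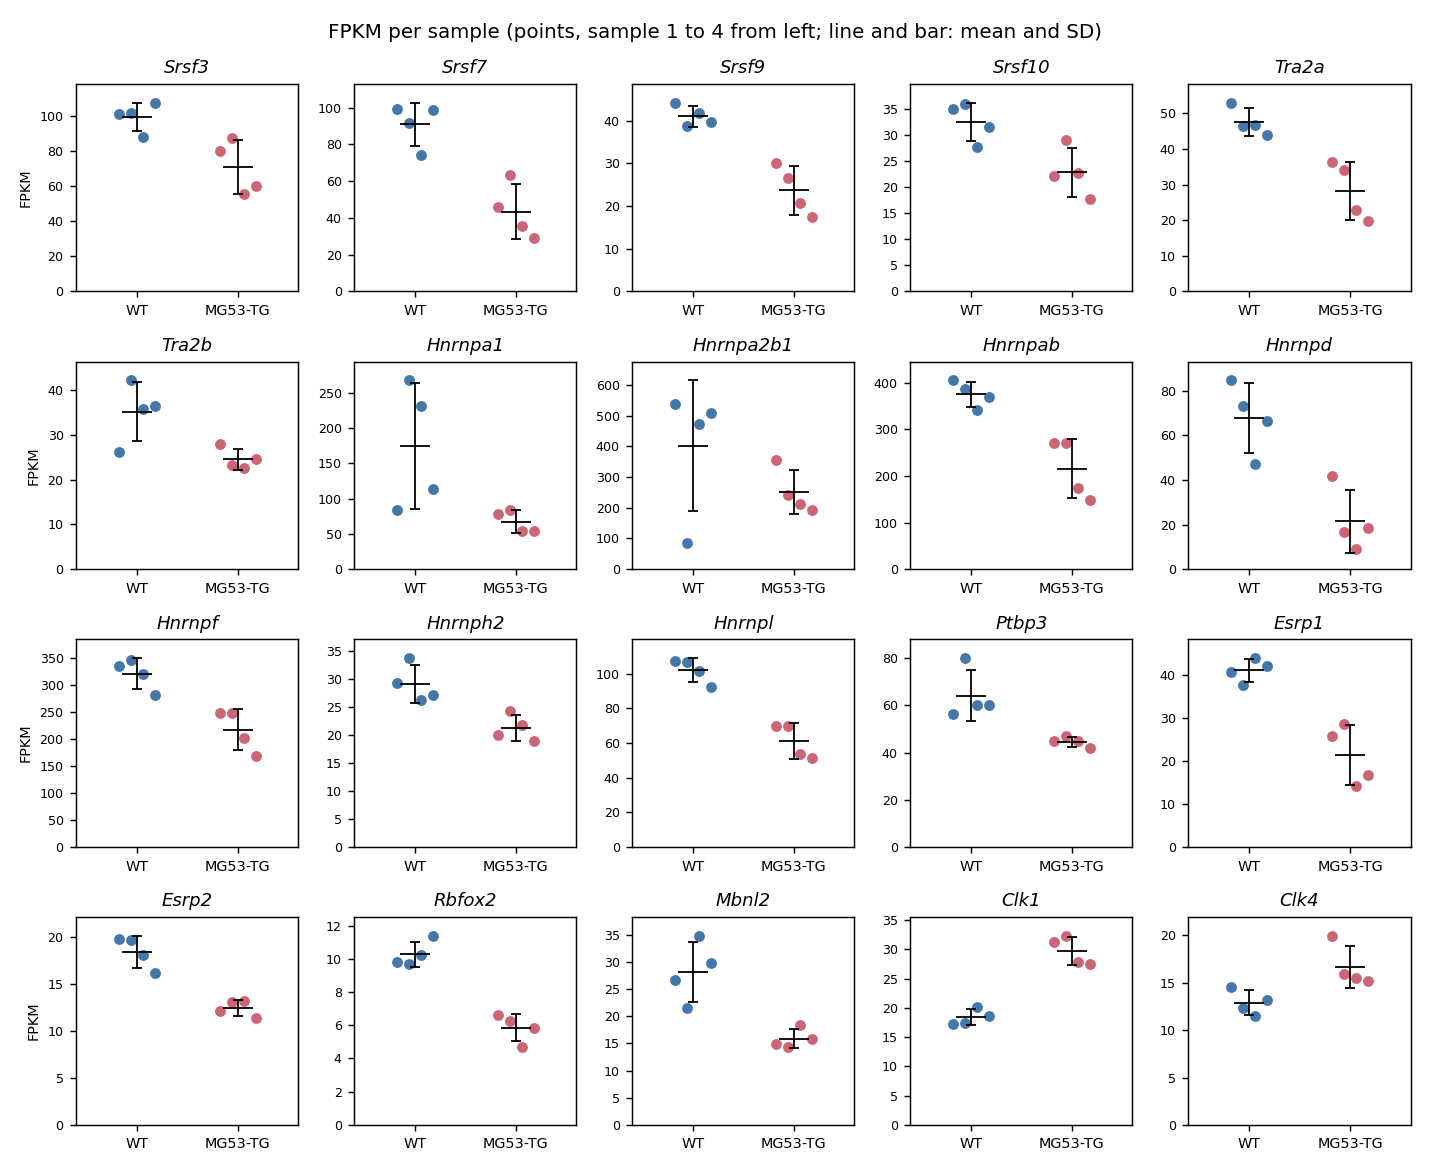
FPKM of each sample for the 19 members past the threshold and for Hnrnpa2b1; points are samples 1 to 4 from left to right, and the line and bar are the mean and SD of 4 samples. The MG53-TG points lie below the WT points for most genes, above them for Clk1 and Clk4, and WT sample 2 of Hnrnpa2b1 stands alone at 84.0.

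The transcripts of the regulators are themselves alternatively spliced. Exon inclusion was the FPKM of the form with the exon as a percentage of the forms with and without it. Among 29 exons in 22 members that could be tested, 1 passed an adjusted p of 0.05 and 4 had an unadjusted p under 0.05. An exon is counted here once for each pair of flanking exons. The 110-base and 151-base exons of Esrp1 therefore each count more than once. Of all 1208 exons tested in these samples, 0.911% passed and 11.3% had an unadjusted p under 0.05. The groups did not overlap for 4 of the 29 exons, against 8.86% of all exons. The exon that passed is a 60-base exon of Hnrnpf (chr6:117907149-117907208, plus strand, GRCm38) in the 5′ untranslated region. Its inclusion was 26.7%, 22.2%, 21.6% and 6.99% in WT and 91.8%, 88.6%, 84.8% and 55.4% in MG53-TG (adjusted p = 0.0278). The form without it was at 47.6, 46.9, 210 and 175 FPKM in WT and at 5.53, 7.83, 6.20 and 26.8 in MG53-TG. Both forms together made up an uneven part of the gene's transcripts, 65.0, 60.2, 268 and 189 FPKM in WT and 40.9 to 68.5 in MG53-TG, against gene levels of 281 to 347 and 170 to 248. The direction was the same without each sample, but the exon missed the threshold without any single sample other than MG53-TG sample 4 (adjusted p up to 0.0916) and with the replicate number as a block (0.0798).

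The other exons whose groups did not overlap were in Mbnl1, Clk1 and Hnrnpa1, and none of these passed. They were picked out after their values were seen. For Mbnl1 and Clk1 the paralog carries an exon of the same length at the same place, and the sequences are shown because they let each exon be set beside its counterpart. The 54-base coding exon of Mbnl1 (chr3:60614683-60614736, plus strand) and that of Mbnl2 (chr14:120395712-120395765, plus strand), whose length keeps the reading frame, differ at 8 bases and share 85.2%, and capitals mark the bases that differ:
Mbnl1: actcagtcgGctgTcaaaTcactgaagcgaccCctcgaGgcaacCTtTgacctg
Mbnl2: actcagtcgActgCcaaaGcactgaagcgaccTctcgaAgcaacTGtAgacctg

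This exon is known to raise the nuclear share of the protein, and MBNL proteins are known to repress its inclusion. Inclusion of the Mbnl1 exon was 48.4%, 74.0%, 87.2% and 93.0% in WT and 9.33%, 44.4%, 5.81% and 8.05% in MG53-TG. The form with the exon had a mean of 22.4 FPKM in WT and 5.31 in MG53-TG, and the form without it 8.28 and 22.5. The groups were separated by a narrow gap, set by WT sample 1 and MG53-TG sample 2, and the adjusted p was 0.0858; without MG53-TG sample 2 it was 0.0360. The Mbnl2 exon was included at 82.9%, 87.7%, 81.8% and 88.9% in WT and at 83.2%, 99.4%, 67.3% and 99.5% in MG53-TG, with no separation. Among Mbnl1 start events, the share of the exon at chr3:60595711-60595764 was 62.0% ± 20.4 in WT and 17.6% ± 18.5 in MG53-TG (SD, n = 4, adjusted p = 0.270).

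The 91-base exons of Clk1 (chr1:58420121-58420211, minus strand) and Clk4 (chr11:51273078-51273168, plus strand) code for part of the protein, and their length does not keep the frame. They differ at 6 bases, marked by capitals, and share 93.4%, so reads within them may have been hard to assign to one gene and their shares are uncertain:
Clk1: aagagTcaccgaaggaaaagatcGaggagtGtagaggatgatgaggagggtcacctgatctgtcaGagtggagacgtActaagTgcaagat
Clk4: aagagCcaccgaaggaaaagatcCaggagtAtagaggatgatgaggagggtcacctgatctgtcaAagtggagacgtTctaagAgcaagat

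Clk1 transcripts without this exon are known to encode a truncated protein that lacks the kinase domain. Inclusion in Clk1 was 23.8%, 40.1%, 50.7% and 42.5% in WT and 68.8%, 65.4%, 62.2% and 56.7% in MG53-TG. All MG53-TG samples were above all WT samples, with an adjusted p of 0.235. The form with the exon had a mean of 6.97 FPKM in WT and 17.7 in MG53-TG, whereas the form without it had 10.6 and 10.2. Inclusion in Clk4 was 11.9%, 13.6%, 62.5% and 3.27% in WT and 48.0%, 44.3%, 12.1% and 19.7% in MG53-TG. WT sample 3 of Clk4 was the highest of all 8, and the groups overlapped. The 156-base coding exon of Hnrnpa1 (chr15:103243625-103243780, plus strand) was included at 95.8% to 98.5% in WT and at 87.1% to 93.0% in MG53-TG (adjusted p = 0.294).

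**Figure D4:**
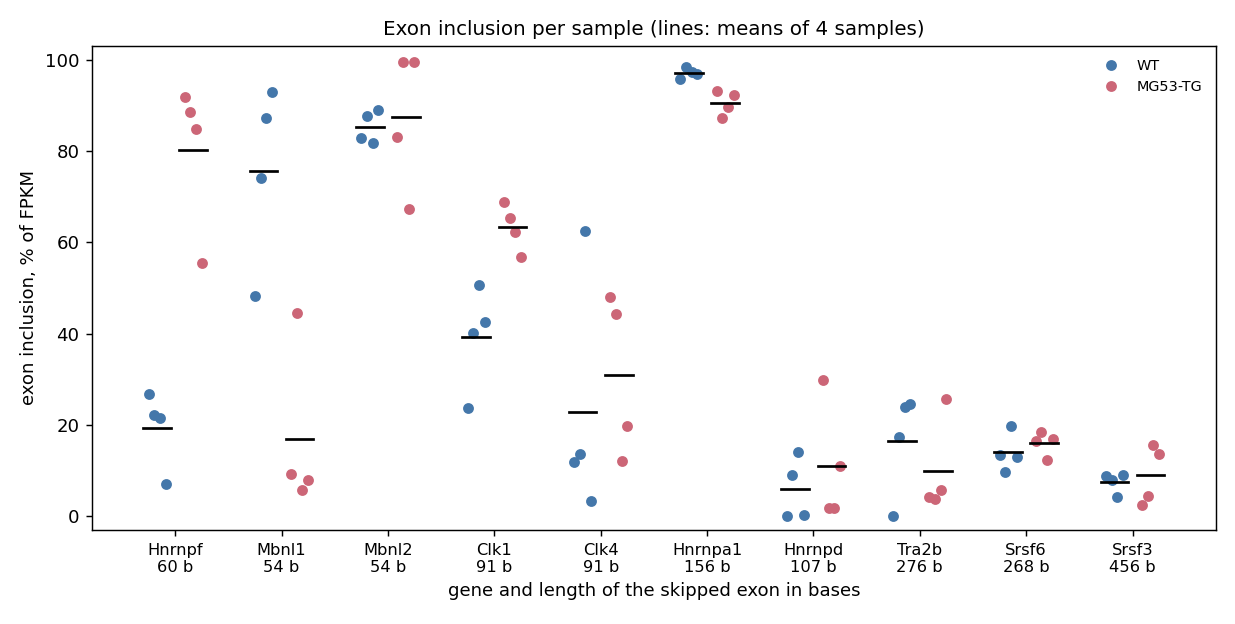
Exon inclusion in percent of FPKM for 10 skipped exons, named by gene and length in bases; points are samples 1 to 4 from left to right, blue for WT and red for MG53-TG, and lines are means. The Hnrnpf, Mbnl1, Clk1 and Hnrnpa1 exons separate the groups, while the Mbnl2 and Clk4 exons and the decay exons of Hnrnpd, Tra2b, Srsf6 and Srsf3 do not.

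Exons annotated only in transcripts subject to nonsense-mediated decay gave no call. Such transcripts are unstable, so their share of steady RNA need not equal the rate at which they are made. The 276-base exon of Tra2b (chr16:22258986-22259261) was included at 16.5% ± 11.4 in WT and 9.87% ± 10.7 in MG53-TG (SD, n = 4). The 456-base exon of Srsf3 (chr17:29039454-29039909) was at 7.53% ± 2.18 and 9.03% ± 6.57, and the 268-base exon of Srsf6 (chr2:162932815-162933082) at 14.0% ± 4.25 and 16.1% ± 2.60. The 107-base exon of Hnrnpd (chr5:99962098-99962204) was at 5.92% ± 6.89 and 11.1% ± 13.2. All adjusted p-values of these exons were at least 0.789. The 147-base coding exon of Hnrnpd and the 141-base coding exon of its paralog Hnrnpab, which make the long isoforms, were likewise near their WT shares, at 74.1% ± 7.07 and 77.7% ± 4.17 for Hnrnpd and at 64.5% ± 1.74 and 60.9% ± 1.70 for Hnrnpab. Another coding exon of Hnrnpd, of 57 bases (chr5:99976534-99976590), was at 26.4% ± 7.77 in WT and 59.2% ± 34.2 in MG53-TG. Its groups overlapped, and it did not pass in limma (adjusted p = 0.499). Some shares changed widely between samples of one group: the 61-base exon of Hnrnpf was at 56.9%, 60.0%, 99.6% and 99.7% in WT.

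Intron retention could be tested for 7 intron intervals in 5 members, and limma called 0 of them, with 0 at an unadjusted p under 0.05. The Hnrnpk intervals chr13:58393774-58393853 and chr13:58393759-58393853 overlap. Their retained form has the same FPKM in every sample, so they are not independent. Of all 370 introns tested, 0.27% passed and 15.1% had an unadjusted p under 0.05. The lowest p was for the Clk1 interval between the exon edges at chr1:58419733 and chr1:58421083, which also spans the 91-base exon of Clk1. This interval was retained at 5.31% ± 6.14 in WT and 13.2% ± 9.87 in MG53-TG (SD, n = 4). The intron intervals of Clk4, Hnrnpk, Hnrnpm and Srsf7 had WT means between 5.44% and 11.6%.

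Among 48 start and end shares in 19 members, 1 passed, and 9 had an unadjusted p under 0.05. Of 5163 shares tested in all genes, 0.542% passed and 11.1% had an unadjusted p under 0.05. The share that passed was the end event of Hnrnpa2b1 at chr6:51460932-51463254 (minus strand), which begins and ends at annotated exon boundaries but is not itself an annotated exon. It made up 99.7%, 98.5%, 99.2% and 99.8% of the end events in WT and 86.2%, 75.8%, 87.4% and 81.8% in MG53-TG (adjusted p = 0.0307). WT sample 2 had a share close to those of the other WT samples. Its end events, however, summed to 84.0 FPKM, against 312 FPKM for the forms of the 120-base exon, so its share is uncertain. A shorter end at chr6:51461121-51461433, which is an annotated exon, was at 0.557% ± 0.480 in WT and 10.7% ± 8.55 in MG53-TG (SD, n = 4, adjusted p = 0.373), with MG53-TG sample 3 at 0.216%. The call of the first end was lost without each single sample (adjusted p up to 0.109). The groups did not overlap for 6 of the 48 shares, against 8.54% of all shares. One of these was the start of Hnrnpa3 at chr2:75659244-75659389, with 64.3% ± 2.97 in WT and 88.1% ± 5.58 in MG53-TG (adjusted p = 0.149). That start is not itself an annotated exon, and only its end lies at an annotated exon boundary. A start of Srsf4 at chr4:131885208-131886304 was at 63.7%, 68.9%, 1.98% and 77.6% in WT and at most 4.39% in MG53-TG (adjusted p = 0.272).

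The rest of the splicing machinery was followed as 123 other genes in 7 lists, of which 111 were tested. Of these, 42 were lower, 1 was higher and 68 did not pass, with a median log2 fold change of -0.40. These were 38.7% past the threshold and 37.8% lower, against 44.4% and 28.9% of all genes. After median-of-ratios scaling 31 passed, 27 lower and 4 higher, and 27 passed without MG53-TG sample 3, all of them lower. In the U1 and Sm list 7 of 15 were lower, in the U2 and branch point list 8 of 15, in the tri-snRNP and B complex list 7 of 14, in the exon junction complex 4 of 9 and in the NTC and step 2 list 4 of 16. Among SR kinases and SR-related proteins 1 of 12 was lower, and among other hnRNP and RNA-binding regulators 11 of 30 were lower and 1 was higher. No gene passed as higher in any of these lists except the last.

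Puf60, which helps U2AF at the 3′ splice site, had the largest change among them, from 26.8 ± 18.0 FPKM in WT to 4.53 ± 1.91 in MG53-TG (SD, n = 4), a log2 fold change of -2.10 ± 0.52 (adjusted p = 0.0115). Snrpa1, a U2 snRNP protein kept here in the U1 and Sm list, was lower by a log2 fold change of -1.06 ± 0.25, and Snrpf, an Sm ring protein, by -1.01 ± 0.18. Sf3a3, of the U2 snRNP, had -0.83 ± 0.19. Snrnp40 and Prpf31, of the U5 and U4/U6 particles, had -0.999 ± 0.20 and -0.93 ± 0.19. Magohb and Magoh, core proteins of the exon junction complex, had -0.92 ± 0.15 and -0.68 ± 0.16. Cdc40 and Crnkl1, which act around the catalytic steps, had -0.60 ± 0.13 and -0.57 ± 0.20, Scaf11 had -0.67 ± 0.13, and Rbm38 and Khsrp had -1.11 ± 0.32 and -0.81 ± 0.18. All of these passed in limma, with adjusted p-values from 0.00141 to 0.0431.

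An exon of another gene overlaps 19 of the 39 members. For most of these members the overlapping gene lies on the opposite strand, as for Hnrnpd, Hnrnpab, Hnrnpf, Hnrnpl, Esrp1, Esrp2, Mbnl2 and Ptbp3. The preparation of the libraries does not state whether strand was kept, so their levels could include reads of the overlapping gene. For Clk4, Hnrnpa3, Hnrnpm and Rbm47 an overlapping gene lies on the same strand, so its reads could be included even if strand was kept.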

How the data were processed

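Intestinal organoids of 4 WT and 4 MG53-TG samples were profiled by RNA sequencing. The authors deposited 1 table of splicing events per sample, with FPKM values for 20 event types. Per the submitters' processing notes, reads were handled with cutadapt 1.9.1, HISAT2 2.0.1, HTSeq 0.6.1 and DESeq2 on mm10; the program that made the event tables is not given in the sources used here. Read counts were not recoverable from FPKM, so the depth is unknown and no counting interval is given; start-event FPKM summed to 269094 to 284330 per sample.

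Events were assigned to genes of GENCODE vM21 (GRCm38) by exon boundaries (94.7% of 128369 events); 5.58% were moved from the gene named. Gene levels were tested as log2(FPKM + 1) with limma 3.58.1 (trend) in R 4.3.3, for the 10864 genes whose mean FPKM was 0.5 or more, and p-values were adjusted over all of them (Benjamini-Hochberg). A fold change on this scale understates that of low genes. Shares were tested as arcsine square roots where both forms summed to at least 2 FPKM in every sample and the mean share was 5% to 95%, adjusted over all events of a kind. The fits were tested on simulated data.

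The members and lists were chosen with earlier results of these data known. Values per sample are given for members with an adjusted p of at most 0.05 and a log2 fold change of at least 0.5 in size, for the largest change of each role and for members with an event past the threshold; of other splicing genes, the 2 largest changes per list past the threshold are named. Other values were chosen after they were seen. Alternatives were another pseudocount, other filters, scaling, start or end events alone, sample weights, a replicate block and leaving out samples; those without the exon check and without MG53-TG samples 3 and 4 were added after seeing the data.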

Additional observations from a re-analysis of the deposited data

Results flagged for a closer look

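Single values were compared with the rest of their group by Dixon's test over 86 groups of 4 samples, 37 members and 6 event shares in WT and in MG53-TG, and 8 stood apart, where chance gives about 4.3. WT sample 2 gave 3 of them, at 57.4 FPKM for Srsf5 and 84.0 FPKM for Hnrnpa2b1 (by end events; 312 FPKM by its skipped exon forms), each the lowest of its group, and at 80.0 FPKM for Ptbp3, the highest. WT sample 3 was the highest of its group for Hnrnpa3, at 11.6 FPKM. WT sample 1 was the highest for Hnrnpu, at 123 FPKM. MG53-TG sample 1 was the highest for Hnrnpk, at 176 FPKM, and for Clk4, at 19.9 FPKM. MG53-TG sample 2 had the highest inclusion of the 54-base exon of Mbnl1 in its group, at 44.4%. Ptbp1, at 15.1 FPKM in WT sample 2, did not reach the critical value.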

How the results depend on the processing

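The count of members past the threshold was 19 and stayed within 1.5 times of that in every alternative, from 14 without MG53-TG sample 4 to 22 without MG53-TG sample 2. Of the 19, 11 passed in every alternative in which they could be tested: Clk1, Esrp1, Esrp2, Hnrnpab, Hnrnpd, Hnrnpf, Hnrnpl, Rbfox2, Srsf7, Srsf9 and Tra2a. Srsf7 had no end events and so was not part of the fit on end events alone. Median-of-ratios scaling and quantile normalization moved the median of all genes by 0.16 and 0.11; over all genes they gave 2200 lower and 2204 higher calls, and 2542 lower and 2023 higher, against 3140 and 1685. The replicate block gave 20 members past the threshold, and 4393 of all genes against 4825. Samples of the same number did not deviate together (correlations 0.0918, 0.0184, 0.0992 and -0.0596, with 1 of 4 WT samples closest to its own number), so the numbers were not read as pairs. Of the other splicing genes, 43 passed, with 27 to 58 when 1 sample was left out, the lowest without MG53-TG sample 3.

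Calls of events were few and depended on the settings. The skipped exon count of 1 fell to 0 on the logit scale and to 0 with the replicate block, and was 0 to 1 when a sample was left out (without MG53-TG sample 2 the exon past the threshold was that of Mbnl1). The start and end count of 1 fell to 0 on the logit scale and to 0 with the replicate block, and was 0 to 2 when a sample was left out. The cause was not tested.

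Of 734 alternative values of the members' log2 fold changes, 30 reversed, none of them in a member past the threshold except Srsf10. End events alone gave 0.22 for Srsf10 and 0.019 for Hnrnpm, but they summed to at most 2.65 and 7.27 FPKM in any sample for these genes, against start events of up to 35.9 and 82.9, and bear little on either level. Median-of-ratios scaling gave 0.13 for Srsf6, 0.15 for Hnrnpa3 and 0.11 for Mbnl1, and quantile normalization -0.028 for Srsf5, 0.15 for Hnrnpa3 and 0.0014 for Mbnl1. Without MG53-TG samples 3 and 4, Srsf2 was at 0.019, Srsf6 at 0.27, Hnrnpa3 at 0.32 and Rbm47 at -0.24. When 1 sample was left out, values ran from -0.31 to 0.30 for Srsf5, -0.17 to 0.058 for Srsf6, -0.20 to 0.15 for Hnrnpa3, -0.47 to 0.48 for Ptbp1, -0.22 to 0.062 for Mbnl1 and -0.083 to 0.10 for Rbm47, and the share difference of the Mbnl2 exon from -2.04 to 8.72 percentage points. The cause was not tested, and the depth behind these values is unknown.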
